A study of Mus musculus with 8 samples.

Results

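The genes described here are 9 genes of blood coagulation and fibrinolysis that macrophages are known to express or to respond with. They are *F7* and *F10* (coagulation factors VII and X), *F3* (tissue factor), *F5* (factor V), *F13a1* (the catalytic chain of factor XIII), *Thbd* (thrombomodulin), *Plau* (urokinase), *Plaur* (the urokinase receptor) and *Serpinb2* (plasminogen activator inhibitor 2). They were taken by gene symbol, 9 of 30789 symbols, and together they had 10 of the 45281 probes of an Illumina bead array, *F5* having 2 and every other gene 1. The study gave acetylated LDL (Ac-LDL), a modified lipoprotein that fills macrophages with cholesterol, to thioglycollate-elicited cells of the mouse peritoneum and asked which genes respond to the loading. The samples were 4 cultures given 120 μg per ml Ac-LDL for 24 h and 4 mock-treated control cultures, and the labels call the 4 of a group biological replicates. All cells came from C57/BL6 mice aged 8 weeks, no allele differed between the groups, and the labels do not say whether a replicate was 1 animal or a pool. Such macrophages are recruited into the peritoneum by an irritant broth, and the methods describe them as adherent cells kept in medium with L-929 conditioned medium. Replicates 1 and 2 of both groups were on one slide and replicates 3 and 4 on another.

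Coagulation starts when factor VII meets tissue factor on a cell membrane. That complex activates factor X, which together with factor V turns prothrombin into thrombin, and factor XIII then cross-links the fibrin that thrombin makes. Thrombomodulin diverts thrombin towards activation of protein C, which shuts the cascade down. Fibrin is dissolved by plasmin, which urokinase generates on cells that carry its receptor and which plasminogen activator inhibitor 2 holds back. Factors VII and X are best known as products of the liver, but macrophages make both, and tissue factor is the classical procoagulant of activated monocytes.

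*F7* was listed because the study had picked it for its increase with Ac-LDL on these arrays, so its values are given as a description without a test. The other genes were added for their function, with earlier results of these arrays known. The probe of *F7* (ILMN_2708871) lies on the plus strand of chromosome 8 from 13035198 to 13035247, in a genome build the file does not name. It starts at base 1236 of transcript NM_010172.2. Its sequence is shown because the whole *F7* result rests on these 50 bases, printed in lower case throughout:
F7 probe: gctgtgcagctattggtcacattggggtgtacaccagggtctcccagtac
The longest run of bases that it shared with any of the 45280 other probes on the array was 14, and for the other 9 probes of the coagulation and fibrinolysis genes the longest shared run was 11 to 14.

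*F7* and *F10* are neighbours on chromosome 8. The windows around their starts, from RefSeq on build GRCm38.p6, are shown because the 2 genes lie next to each other and their levels are described side by side. Each window holds 250 bases before the start and 50 from it on, at chr8:13025784-13026083 for *F7* and chr8:13037058-13037357 for *F10*, both on the plus strand. Capitals mark matches on either strand to AGGTCA, the half-site of nuclear receptors, or to GAGGAA, a core of PU.1 sites:
F7 window: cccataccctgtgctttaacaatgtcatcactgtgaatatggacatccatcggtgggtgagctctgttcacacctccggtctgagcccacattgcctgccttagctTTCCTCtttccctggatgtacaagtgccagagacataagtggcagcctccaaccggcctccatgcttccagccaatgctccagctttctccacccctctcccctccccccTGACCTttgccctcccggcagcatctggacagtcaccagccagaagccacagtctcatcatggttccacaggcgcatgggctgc
F10 window: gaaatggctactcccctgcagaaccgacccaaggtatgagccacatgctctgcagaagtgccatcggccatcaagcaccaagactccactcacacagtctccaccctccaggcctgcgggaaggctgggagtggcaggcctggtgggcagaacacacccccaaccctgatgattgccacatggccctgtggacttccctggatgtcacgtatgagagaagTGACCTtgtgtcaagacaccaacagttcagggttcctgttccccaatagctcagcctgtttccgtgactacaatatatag
Both windows held 1 match to the half-site on the minus strand, beginning at base -34 from the start of *F7* and at base -30 from that of *F10*. Of all 32851 windows of the table, 16.3% held such a match. The *F7* window alone held the PU.1 core, at base -144 on the minus strand, a match found in 28.3% of all windows. Neither window held TGANTCA, the AP-1 site (7.81% of all windows), or GGGCGG, the Sp1 site (35.7%), and none of the matches overlapped another. These matches are descriptions of letters and carry no evidence of binding.

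Array signals were compared on a log2 scale after background correction and quantile normalization (neqc). A probe counted as detected on an array when its detection p-value, its rank among the negative controls of that array, was at most 0.05. Between 16679 and 17439 probes were detected per array, and the test took in the 17122 probes that 4 or more of the 8 arrays detected. Of the 9 genes, 7 had a tested probe. Precision is limited by the 4 arrays of each group, and since the labels do not say that replicates were separate animals, the p-values measure the spread between these cultures. The label of the cells was checked against marker genes, with 9 of 10 macrophage markers detected on all 8 arrays and the *Msr1* probe on 0. They also carried stromal transcripts, since 6 of 7 fibroblast and mesothelial markers were detected on all 8 arrays, among them *Dcn* at a log2 intensity of 13.21 ± 0.21 (SD, n = 4) in control. In these bulk samples, fewer cells of a type and less RNA per cell cannot be told apart. Of 5 hepatocyte markers, 0 were detected on any array. Of 8 markers of resident large peritoneal macrophages, 4 were detected on all 8 arrays, among them *Gata6* at 10.40 ± 0.09 (SD, n = 4) in control. *Timd4*, *Cd5l* and *Alox15*, 3 others of that list, were detected on 0 arrays. Which of the cells carried the 9 genes was not tested.

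*F7* was higher with Ac-LDL. Its normalized log2 intensity was 7.62, 8.40, 7.90 and 8.30 on control replicates 1 to 4 and 8.64, 8.93, 8.95 and 8.71 on Ac-LDL replicates 1 to 4. The lowest Ac-LDL array thus lay above the highest control array, a separation which 2.11% of all tested probes also had in this direction, and nothing is read from it because the gene was picked on this contrast. The means were 8.06 ± 0.36 (SD, n = 4) and 8.81 ± 0.16 (SD, n = 4), a log2 difference of 0.75 (standard error 0.17), or 1.68-fold. Within replicate numbers the log2 difference was 1.02, 0.54, 1.05 and 0.41. It was 0.78 on the first slide and 0.73 on the second, each a mean over replicates whose own differences were unlike.

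The bead intensities of *F7* before any correction did not overlap between the groups either, if barely, and again nothing is read from this. They were 248, 325, 281 and 381 on the control arrays and 383, 487, 517 and 415 on the Ac-LDL arrays. Each rested on 33 to 50 beads. The 2 arrays of replicate 4 were closest, at 381 and 415.

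**Figure D1:**
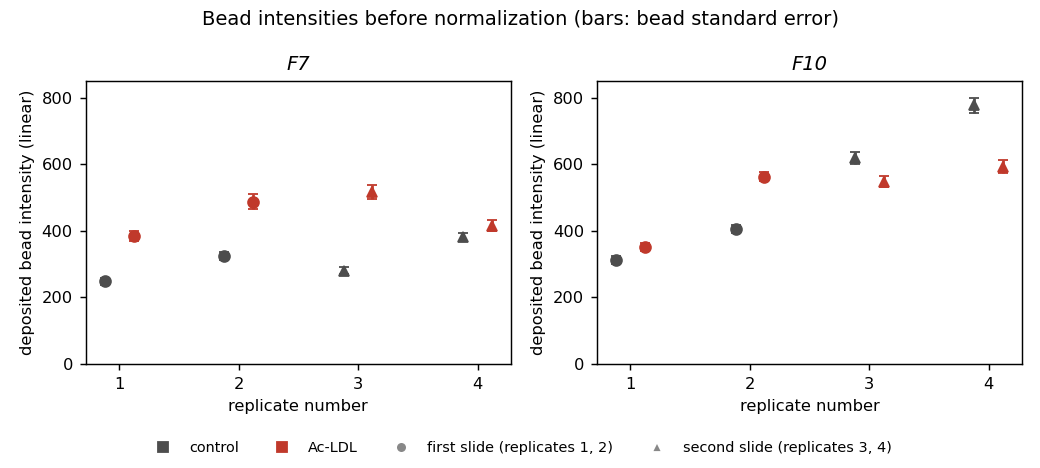
Deposited bead intensity on a linear axis of *F7* and *F10* for each replicate number, with control in grey and Ac-LDL in red; circles are the first slide, triangles the second, and bars the bead standard error of each array. *F7* was higher with Ac-LDL in every replicate, from 381 to 415 in replicate 4, whereas *F10* fell from 777 to 593 in replicate 4 and rose from 405 to 563 in replicate 2.

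*F10*, the next gene along the chromosome and the substrate of factor VIIa, was also detected on all 8 arrays. Its log2 intensity was 7.97, 8.73, 9.13 and 9.39 on control replicates 1 to 4 and 8.51, 9.16, 9.04 and 9.26 on Ac-LDL replicates 1 to 4. The groups overlapped almost entirely, and what separated the arrays most was the replicate, with replicate 1 lowest in both groups. The log2 difference between Ac-LDL and control was 0.19 (standard error 0.28, 95% interval -0.44 to 0.81, adjusted p = 0.989 from limma). It was 0.54, 0.43, -0.09 and -0.13 within replicates 1 to 4, 0.48 on the first slide and -0.11 on the second. Whether the treatment difference of *F7* differed from that of *F10* was not tested, as *F7* was picked for its own.

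The other genes near this pair were taken from the RefSeq gene order, 5 protein-coding genes on each side. Of these 10 genes, 4 had a tested probe, and limma called 0 of them (adjusted p 0.961 to 0.998; 0 also with the replicate number as a block), where 0.0483% of all gene symbols were called by their brightest probe. *Mcf2l*, which flanks *F7*, went from 5.11 ± 0.38 (SD, n = 4) to 5.43 ± 0.32 (SD, n = 4) on the log2 scale. The groups did not overlap for 1 of the 4, against 3.86% of all gene symbols. This was *Lamp1*, a lysosomal membrane protein, at 13.42 ± 0.07 (SD, n = 4) in control and 13.55 ± 0.04 (SD, n = 4) with Ac-LDL. *Cul4a*, a ubiquitin ligase scaffold between *Lamp1* and *F10*, had a log2 difference of 0.01 and *Pcid2* of 0.18. *Proz*, the gene of protein Z and the direct neighbour of *F10*, was detected on 0 of the 8 arrays.

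Tissue factor, the cell-surface partner of factor VII, was not detected. The *F3* probe had bead intensities of 37.2 to 43.8 over the 8 arrays, and its detection p-value was above 0.05 on each of them. Factor V was not detected either, by 2 probes with bead intensities of 38.6 to 49.6. No fold change is given for these genes, as both groups were at the level of the negative controls. These probes bound the signal only, and transcripts below the background of the array are not excluded. *F3* rests on 1 probe, and whether the probes of *F3* and *F5* respond to their transcripts was not tested.

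Thrombomodulin, the anticoagulant receptor of thrombin, was well above background on every array. Its log2 intensity was 9.20, 9.16, 9.15 and 9.54 on control replicates 1 to 4 and 9.03, 9.25, 8.70 and 9.29 on Ac-LDL replicates 1 to 4. The groups overlapped, with Ac-LDL below control in 3 of 4 replicates. The log2 difference was -0.20 (standard error 0.15, 95% interval -0.53 to 0.13, adjusted p = 0.968 from limma). Control replicate 4 stood above the other control arrays, and without it the difference was -0.10.

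In the plasminogen activator system, 0 of 3 genes were called, where 0.0409% of all tested probes were, so this count is no result about them. *Plau*, urokinase, had log2 intensities of 8.53, 8.30, 9.06 and 8.99 on control replicates 1 to 4 and 8.70, 8.90, 9.70 and 9.15 on Ac-LDL replicates 1 to 4. It was higher with Ac-LDL in 4 of 4 replicates, while the groups overlapped because the replicates lay far apart. The log2 difference was 0.39 (standard error 0.23, 95% interval -0.12 to 0.91, adjusted p = 0.961 from limma). The bead intensity before normalization was 451, 304, 588 and 595 in control and 400, 475, 841 and 552 with Ac-LDL. Before normalization *Plau* was thus lower with Ac-LDL in replicates 1 and 4, so that its direction there rests on the scaling between arrays.

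*Plaur*, which holds urokinase at the cell surface, had log2 intensities of 7.73, 7.96, 8.54 and 8.37 in control and 8.32, 8.24, 8.58 and 8.50 with Ac-LDL, in the order of the replicates. It too was higher with Ac-LDL in 4 of 4 replicates and overlapped between groups. The log2 difference was 0.26 (standard error 0.17, 95% interval -0.12 to 0.65, adjusted p = 0.961 from limma), and it was 0.44 on the first slide and 0.088 on the second. Before normalization the bead intensity was 418 and 398 in control replicates 3 and 4 against 410 and 363 with Ac-LDL, again the opposite direction. *Serpinb2*, the inhibitor of urokinase, was dim and was detected on 4 control and 2 Ac-LDL arrays. Its log2 intensity was 5.93, 5.41, 4.90 and 5.98 in control and 4.61, 4.92, 4.70 and 5.99 with Ac-LDL. Ac-LDL replicate 4 was as high as the highest control array while the other 3 Ac-LDL arrays were near background. The log2 difference was -0.50 (standard error 0.32, 95% interval -1.22 to 0.22, adjusted p = 0.961 from limma), and without Ac-LDL replicate 4 it was -0.81.

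*F13a1*, the transglutaminase chain that macrophages and platelets carry, spread more between replicates than any other of the 9 genes. Its log2 intensity was 4.33, 5.63, 6.08 and 8.53 on control replicates 1 to 4 and 4.77, 5.65, 5.69 and 7.34 on Ac-LDL replicates 1 to 4. In both groups replicate 1 was at background and replicate 4 far above the rest. The bead intensity ran from 39.0 to 440.4 over the control arrays alone. The log2 difference of -0.28 (standard error 0.80, 95% interval -2.06 to 1.49, adjusted p = 0.994 from limma) was small beside this spread, and it was 0.51 without control replicate 4 and 0.08 without Ac-LDL replicate 1.

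**Figure D2:**
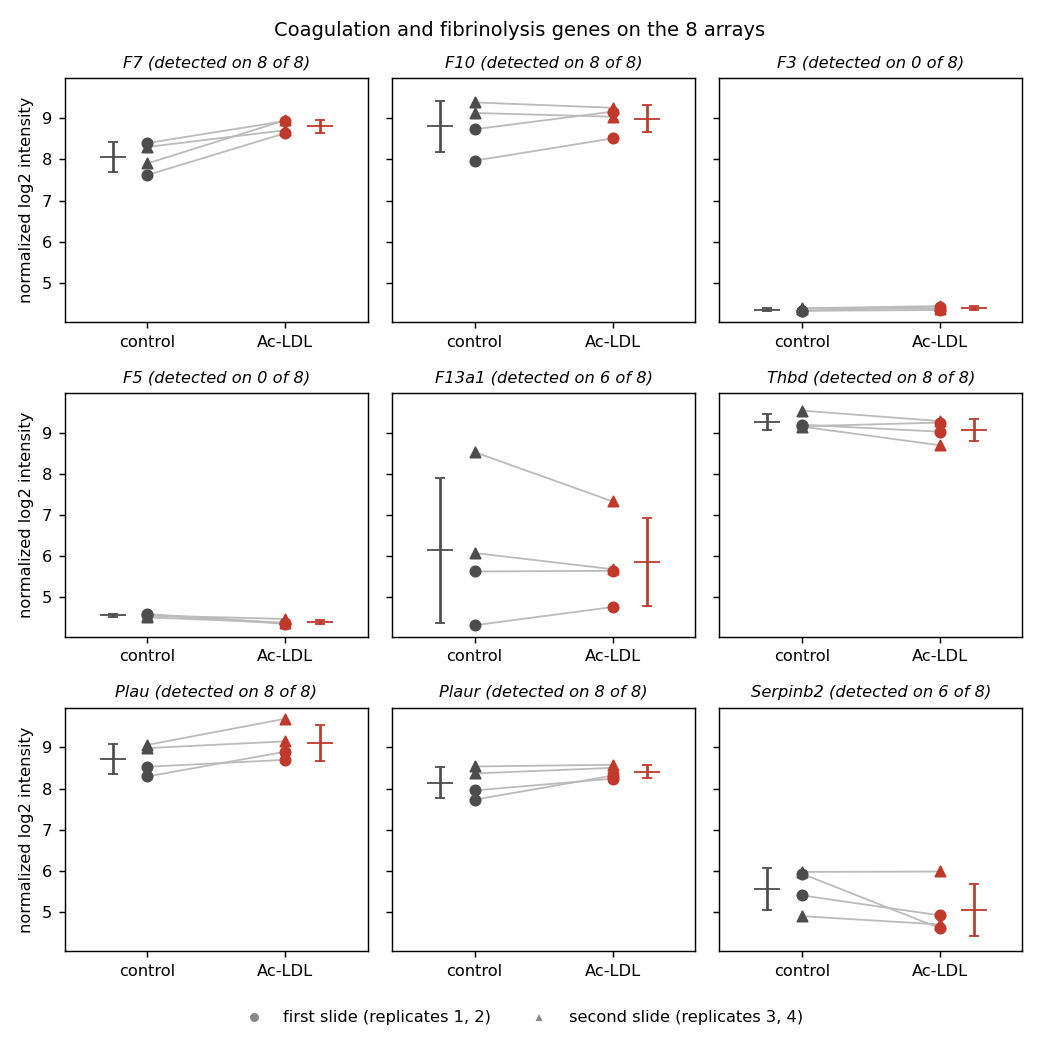
Normalized log2 intensity of the 9 genes (for *F5* the brighter probe) on control arrays in grey and Ac-LDL arrays in red, with lines joining arrays of the same replicate number, circles for the first slide, triangles for the second, and bars for the mean and SD of 4 arrays. Among the 7 tested genes the groups are apart for *F7*, which was picked on this contrast (2.11% of all tested probes were apart in this direction), *F3* and *F5* lie at background, and *F13a1* runs from 4.33 to 8.53 within control.

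Among the 6 tested genes other than *F7*, limma called 0 at an adjusted p under 0.05. An unadjusted p under 0.05 was also found for 0 of them, against 891 of all 17122 probes. Without a block the smallest unadjusted p was 0.121, for *Plau*. The share of all 17122 tested probes called was itself 0.0409% (7 probes), so that a count of 0 among 6 is no result about these genes. A block for the replicate number raised the share of all probes called to 0.444%, and one for the slide to 0.321%. Again 0 of these 6 genes were called with either block. With the replicate block 3 of them, *Plau*, *Plaur* and *Serpinb2*, had an unadjusted p under 0.05, against 2371 of all 17122 probes. With the slide block 2 of them did, *Plau* and *Plaur*, against 2077 of all 17122 probes. The methods' t-test called 0 of these 6 genes, and 0 of the 6 had an unadjusted p under 0.05. Of these 6 genes 3 were higher and 3 lower with Ac-LDL, and their median log2 difference was -0.0054 against 0.00122 over all tested probes. The intervals without a block leave room for increases of the size seen in *F7* for *F10*, *Plau* and *F13a1*. With the replicate block the standard errors of these differences fell from 0.28, 0.23 and 0.80 to 0.13, 0.11 and 0.22. This room therefore holds for the fit without a block only.

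The slide contrast shares nothing with the choice of *F7*, since each slide held 2 arrays of each group. Slide and replicate cultures cannot be told apart in it. *Plau*, *Plaur* and *F13a1* were higher on the second slide, and limma called these 3 of the 7 tested genes. Among all tested probes 23.6% were called in this contrast, 11.7% as higher on the second slide. *Plau* was 0.62 higher on the log2 scale (standard error 0.12, adjusted p = 0.00662 from limma), with 8.61 ± 0.26 (SD, n = 4) on the first and 9.22 ± 0.32 (SD, n = 4) on the second slide. *Plaur* was 0.44 higher (standard error 0.10, adjusted p = 0.0130 from limma). Both remained called without any single array. *F13a1* was 1.82 higher, or 3.52-fold (standard error 0.55, adjusted p = 0.0389 from limma), but this call was lost without control replicate 1, 2 or 4 or without Ac-LDL replicate 1 or 4, when the adjusted p was 0.0613 to 0.112.

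For all 3 genes every array of the second slide was above every array of the first, which 24.2% of all tested probes showed in either direction. *F10* was 0.61 higher on the second slide (standard error 0.20, adjusted p = 0.0536 from limma) and just missed the threshold. It passed without Ac-LDL replicate 2 (adjusted p = 0.0132) or Ac-LDL replicate 3 (adjusted p = 0.0391). *F7*, *Thbd* and *Serpinb2* differed between the slides by 0.07, 0.01 and 0.17 on the log2 scale, with standard errors of 0.17, 0.14 and 0.31. Their adjusted p was 0.794, 0.964 and 0.728, and a p that misses the threshold does not show equal levels.

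Macrophage markers moved with the slides in the same direction. The summed linear level of the 10 macrophage markers was 36516 to 40168 on the first slide and 43062 to 46459 on the second, and 5 of the 9 tested markers were called higher, among them *Adgre1*, the gene of F4/80, by 1.19 on the log2 scale (adjusted p = 0.00115 from limma). The brightest markers, *Lyz2* and *Cd68*, were 0.14 and 0.06 higher and were not called (adjusted p = 0.208 and 0.670 from limma). The fibroblast and mesothelial sum was 14537 to 16743 on the first slide and 12037 to 14759 on the second, with 2 of 6 tested markers called lower. *Pf4*, a platelet and macrophage chemokine, was 1.41 higher on the second slide (adjusted p = 0.00798 from limma), while *Gp9*, the other tested marker of the megakaryocyte and platelet list, had a slide difference of -0.13 (adjusted p = 0.618). Of the 6 markers of that list with a probe, *Pf4* was detected on 8 arrays, *Gp9* on 5 and *Itga2b* on 3. *Ppbp*, *Gp1bb* and *Gp6* were detected on 0 arrays. The part of these shifts in the slide differences of *Plau*, *Plaur* and *F13a1* was not tested.

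**Figure D3:**
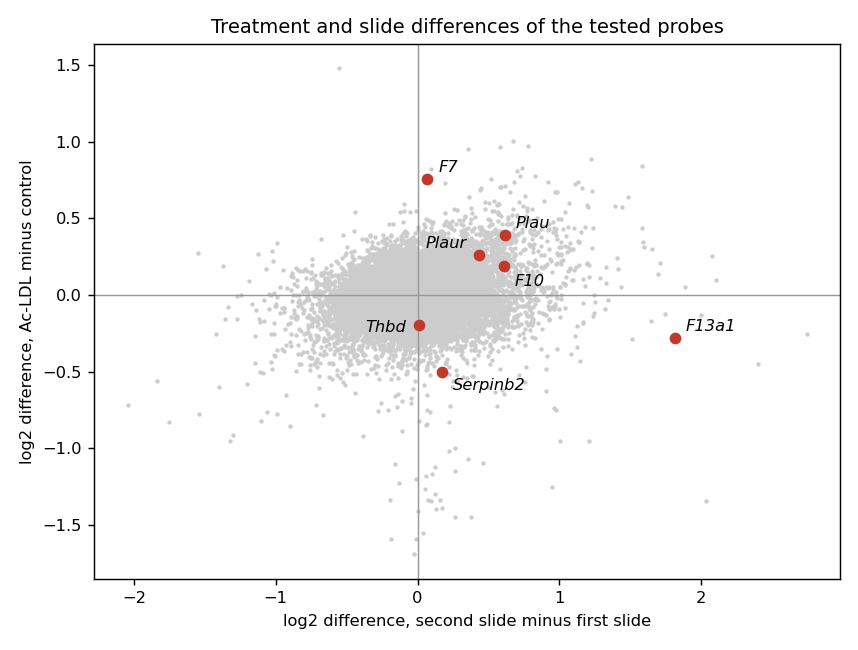
Log2 difference between Ac-LDL and control on the vertical axis against the log2 difference between the second and the first slide on the horizontal axis, for all 17122 tested probes in grey and the 7 tested coagulation and fibrinolysis genes in red. *F7* sits high with a slide difference of 0.07, *F13a1* far right with one of 1.82, and *F10*, *Plau* and *Plaur* right of the centre.

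Between Ac-LDL and control, the summed macrophage markers overlapped, at 36516 to 46459 in control and 38100 to 45054 with Ac-LDL, as did the fibroblast and mesothelial sum, at 12037 to 16743 and 13300 to 15143. The sum of the neutrophil and eosinophil markers did not, at 672 to 736 in control and 762 to 842 with Ac-LDL. That sum rested on *S100a8*, a calgranulin, which was the 1 detected of 7 such genes with a probe and went from 9.20 ± 0.07 (SD, n = 4) to 9.44 ± 0.07 (SD, n = 4). *S100a9*, *Retnlg*, *Siglecf*, *Epx*, *Prg2* and *Ccr3* were detected on 0 arrays. Limma called 0 of the 6 tested fibroblast and mesothelial markers, of which 3 were higher and 3 lower with Ac-LDL. *Col1a2*, at a log2 difference of -0.23 (adjusted p = 0.887), was the 1 of these 6 whose groups did not overlap, and those of *S100a8* did not either. Of all gene symbols 3.86% had groups apart and 0.0483% were called, so little is read from these marker counts. Of the 9 tested macrophage markers 6 were higher and 3 lower, from *Fcgr1* at 0.61 (adjusted p = 0.942) to *Cd14* at -0.48 (adjusted p = 0.960), and limma called 0. The macrophage sum rested mainly on *Lyz2* and *Cd68*, at log2 intensities of 14.73 and 13.06 in control. Their log2 differences were -0.007 and 0.02, so the sum says little about the dimmer markers. *Mertk*, an efferocytosis receptor, had a log2 difference of 0.56, with an adjusted p of 0.817, of 0.166 with the slide block and of 0.0364 with the replicate block. The part of these markers in the values of *F7* was not tested.

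The wider cascade was read from 4 lists with 54 genes in all, 45 of them outside the 9 genes. By the brightest tested probe of each gene, 20 of the 45 were tested, and 20 were detected on 0 arrays by any probe. Among the 20 tested genes the values were higher in 12 and lower in 8. Their median log2 difference was 0.051, and limma called 0, as it did with either block. Of all gene symbols 0.0483% were called without a block. The arrays of the groups overlapped for all 20, while 3.86% of all gene symbols had groups apart. With shares this low, counts of 0 among 20 are no result about these genes. Among all 26 tested genes of the lists other than *F7*, 0 had an unadjusted p under 0.05, against 891 of all 17122 probes. The replicate block gave 5 such genes (and 2371 probes), the slide block 3 (and 2077 probes) and the methods' t-test 1 (and 1039 probes).

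Of the 9 tested genes of the coagulation factor list other than *F7*, 5 were higher and 4 lower. *Vwf*, the adhesive carrier of factor VIII, went from 8.03 ± 0.30 (SD, n = 4) to 7.73 ± 0.40 (SD, n = 4) on the log2 scale. It is also 1 of the 5 endothelial markers, of which *Kdr* was detected on 1 array and *Pecam1*, *Cdh5* and *Tek* on 0. *Vkorc1*, which recycles the vitamin K that factors VII and X need for their carboxylation, went from 10.69 ± 0.08 (SD, n = 4) to 10.87 ± 0.17 (SD, n = 4). *F8*, *F11*, *F12*, *F13b* and 2 of the 3 fibrinogen chains were detected on 0 arrays, and *F9* was dim, at 5.12 ± 0.26 (SD, n = 4) in control and 5.24 ± 0.13 (SD, n = 4) with Ac-LDL.

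Of the 6 tested inhibitors, 3 were higher and 3 lower. *Pros1*, the gene of protein S, a cofactor of activated protein C, went from 8.72 ± 0.44 (SD, n = 4) to 9.02 ± 0.31 (SD, n = 4), and *Serpind1*, heparin cofactor II, from 4.79 ± 0.29 (SD, n = 4) to 5.03 ± 0.38 (SD, n = 4). Of the 10 tested genes of the plasminogen system, 6 were higher and 4 lower. *Lrp1*, the endocytic receptor that clears protease and inhibitor complexes, had a log2 difference of -0.14, and *S100a10*, part of a plasminogen receptor on macrophages, one of -0.12. *Plg*, plasminogen itself, was detected on 0 arrays. Of the 4 protease-activated receptors, *F2r* was the 1 detected, with a log2 difference of 0.01. Between the slides, 24.3% of all gene symbols were called, and of these 20 genes 4 were called higher on the second slide (*Lman1*, *Pros1*, *Serpind1* and *Lrp1*, log2 differences of 0.34 to 0.56) and *F2r* lower (-0.47). *Lman1*, *F9*, *Plg* and the undetected factors are named after their values were seen.

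**Figure D4:**
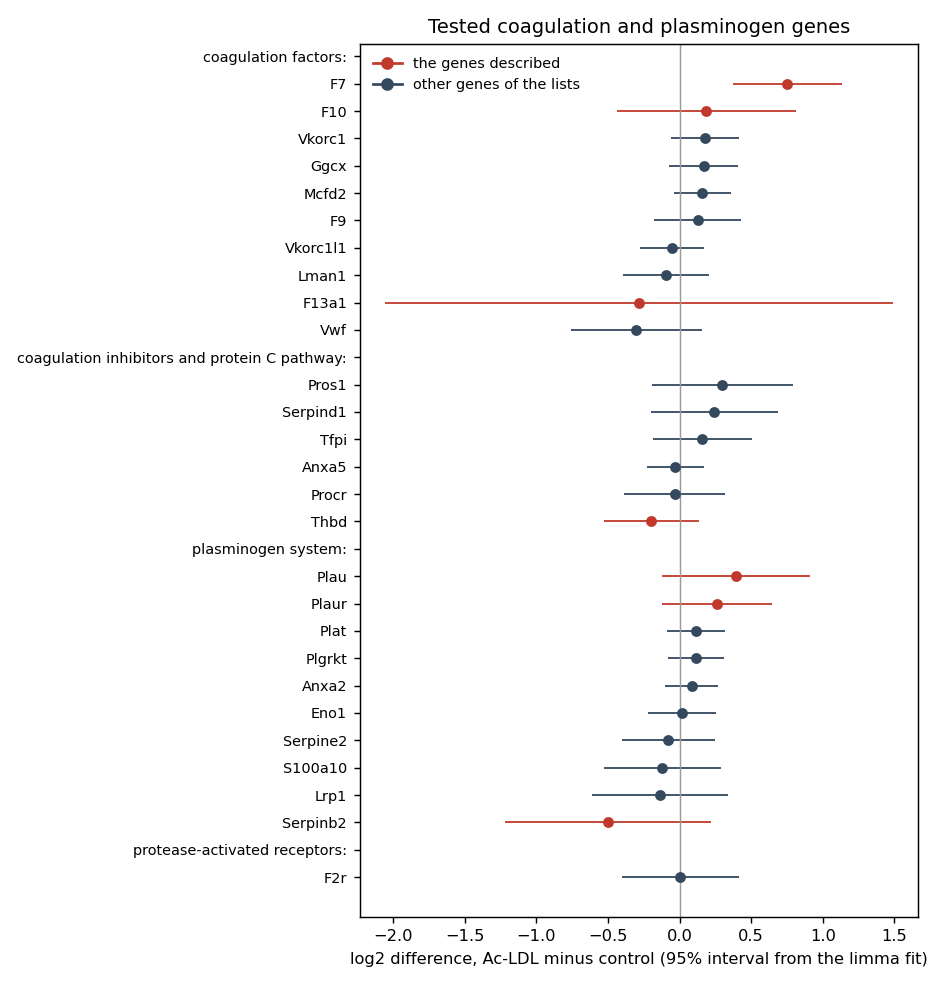
Log2 difference between Ac-LDL and control, with its 95% interval from limma without a block, for the tested genes of the 4 lists, in red for the 7 tested genes among the 9 described and in blue for the others. Apart from *F7*, which was picked on this contrast, every interval includes 0, and that of *F13a1* is the widest, from -2.06 to 1.49.

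The genes whose profile over the 8 arrays lay closest to that of *F7* were found among 12422 gene symbols by the root mean square difference of log2 values, each profile centred on its own mean. They were *Ly78* (now *Cd180*), an immune receptor related to the toll-like receptors, *Tmem118* (now *Rnft2*), *Alpk2*, *Arhgap19* and *Hyal1*, a hyaluronidase, with differences of 0.22 to 0.24. Their own log2 differences between Ac-LDL and control were 0.41 to 0.59. Of the coagulation and fibrinolysis genes the closest was *Plaur*, at 0.39 with 949 genes closer, and *F10* was at 0.44 with 3508 genes closer. As likeness to *F7* includes the separation of the groups for which *F7* was picked, these values describe the arrays only.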

How the data were processed

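Total RNA was measured on 8 Illumina Mouse WG-6 bead arrays, 4 per group. The authors deposited, per array and probe, a mean bead intensity that was neither background-subtracted nor normalized, a detection p-value, the standard error over its beads and how many beads it had. The study normalized its data in GeneSpring, and those normalized values are not used here. The labels name BeadStudio as a processing tool, and its version is not given in the sources used here. The median intensity over all probes was 42.5 to 46.4 per array. The signals were processed here with R 4.3.3 and limma 3.58.1 by neqc (normexp background from the detection p-values, offset 16, quantile normalization, log2), and probes detected at p of at most 0.05 on at least 4 arrays were tested by lmFit and eBayes with no block, following the unpaired test named in the study. Benjamini-Hochberg adjustment ran over all tested probes at a threshold of 0.05. The slide contrast had treatment as a covariate. Groups were taken from the sample titles, and slides from the array identifiers. Arrays of the same replicate number shared deviations from their group means (r across probes 0.468 to 0.629, probes not being independent), as did, at r of 0.188 to 0.447, arrays of different number on the same slide, and the replicate number was a block in an alternative. Other alternatives changed the background, offset, scaling, detection filter, prior, test and arrays. Fits were tested on simulated data. Symbols are those of the file, with list genes also matched through RefSeq identifiers (32028 probes matched), and a gene with several probes is given by its brightest tested one. Promoter windows were matched for 7 of the 9 genes and shown for 2. The named genes were the 9 genes, list genes called with or without the replicate block, those with groups apart, the 2 largest differences of each list, 5 genes most like *F7*, and 5 neighbours on each side. The genes and lists were chosen with earlier results of these data known. The values of 1 gene of the plasminogen list are not reported here.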

Additional observations from a re-analysis of the deposited data

Results flagged for a closer look

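In control, replicate 4 had a *Thbd* log2 intensity of 9.54, whereas the remaining 3 control arrays were at 9.15 to 9.20. Such a gap occurred in 1 of the 14 groups of 4 arrays examined for the 7 tested genes, where chance gives one in about 5% of groups. Without this array the *Thbd* difference between Ac-LDL and control moved from -0.20 to -0.10, and it was not called in either case. The cause was not tested.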

How the results depend on the processing

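The *F7* log2 difference stayed between 0.61 and 0.87 with single arrays left out and between 0.63 and 0.78 under the other alternatives, within 1 pooled SD (0.28) of its value. The number of all probes called between Ac-LDL and control moved from 7 to 76 with the replicate block, 55 with the slide block, 14 without background correction, 26 with median scaling, 16 with a trended and robust prior, 0 without a detection filter (2290 with an unadjusted p under 0.05) and 0 by the methods' t-test (1039). With single arrays left out it was 0 to 15 (639 to 1135 with an unadjusted p under 0.05): 15 without control replicate 2, 1 without Ac-LDL replicate 4 and 0 without control replicate 4 or Ac-LDL replicate 1, 2 or 3. The counts of 0 called among the 6 other tested genes and among the other genes of the lists did not change under any alternative, the replicate block included. Between the slides, 2333 to 4478 probes were called with single arrays left out, with the count at 2499, 2503, 2333 and 2576 without control replicates 1 to 4, and 2 to 4 of the 7 tested genes. The *F10* slide difference was called with another background, offset or scaling and on probes detected on all 8 arrays (adjusted p 0.00495 to 0.0496), and the *F13a1* one was lost without the detection filter and with the trended prior (adjusted p 0.177 and 0.143). The sign of uncalled differences turned for *F10* within the second slide (-0.11) and without control replicate 1 (-0.092), for *F13a1* within the first slide (0.23) and with arrays left out (-0.89 to 0.51), and between the slides, with arrays left out, for *F7* (-0.090 to 0.22), *Thbd* (-0.10 to 0.16) and *Serpinb2* (-0.17 to 0.47). With arrays left out, *F10* ranged from -0.092 to 0.38. Signal over background limits *F3*, *F5*, *F13a1* and *Serpinb2*.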
